A study of Mus musculus with 2 samples.

Results

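Hepatic stellate cells and the cells that wrap blood vessels were followed in embryonic mouse liver through 10 of the 43346 mouse genes in the tables. The genes were taken by symbol, as genes known to mark or signal between these cells: Des, Acta2, Tagln, Pdgfra, Pdgfrb, Ngfr, Reln, Rgs5 and Hgf, with Met added as the receptor of Hgf on hepatoblasts. The rule that picks them uses no measured value, though it was written with earlier results of these data known. The study sequenced total RNA of whole liver from embryos of the mouse strain B6NCrl, aged 11.5 days, in 2 libraries labelled as biological replicates of 1 group. Replicate 1 came from 109 pooled embryos and replicate 2 from a pool of unstated size, each of both sexes and labelled healthy. Each library started from 10 ng of RNA, small RNAs left out, extracted with a mirVana kit; spike-in RNAs were added and the library protocol is named for Smart-seq. There was no second condition, so every value describes this tissue and its 2 pools, and no p-value is given.

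Stellate cells lie between the liver sinusoids and the hepatocytes, store vitamin A in the adult, and turn into contractile, matrix-making cells after injury. In the embryo they arise largely from the mesothelium and mesenchyme around the liver bud, and pericytes and smooth muscle cells cover the larger vessels. Both kinds of cell read PDGF signals through receptor tyrosine kinases, and mesenchymal HGF acts on the MET receptor of neighbouring hepatoblasts, whose growth and survival depend on it. In whole tissue, fewer cells of a type and less RNA per cell cannot be told apart.

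Sequence around 1 of the genes, Acta2, is shown because the smooth muscle genes are textbook targets of serum response factor, which binds a motif named the CArG box. RefSeq promoter windows on GRCm38.p6 were found for 8 of the 10 genes, Tagln and Pdgfrb having no entry. The 250 bases before each annotated start were searched on both strands for the CArG box, allowing at most 1 mismatch in its A/T core. Only Acta2 among the 8 had a match, and it had 2, which did not overlap and each had 1 mismatch in the core. Each is printed with its neighbouring bases on the minus strand, 5′ to 3′, with the motif in capitals, first chr19:34255438-34255467 and then chr19:34255388-34255417.
Acta2 upstream site: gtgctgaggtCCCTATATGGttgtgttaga
Acta2 downstream site: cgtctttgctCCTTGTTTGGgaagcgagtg
Counted from the RefSeq start, the motifs lay at -84 to -75 and at -34 to -25. Of 32851 promoter windows of this length, 8.59% held a match with at most 1 mismatch, and 0.67% held 2 or more such matches. A match with no mismatch was held by 1.47%. GENCODE M21 starts Acta2 further upstream, so both sites fall inside its first exon in that annotation. These are matches of letters, and no binding was measured.

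The corresponding stretch before Des, chr1:75360042-75360291 on the plus strand, is shown as the other muscle-type gene with a window. It had no CArG match. Capitals mark its 2 copies of CANNTG, the E-box bound by muscle and other basic helix-loop-helix factors, which reads the same on both strands.
Des upstream window: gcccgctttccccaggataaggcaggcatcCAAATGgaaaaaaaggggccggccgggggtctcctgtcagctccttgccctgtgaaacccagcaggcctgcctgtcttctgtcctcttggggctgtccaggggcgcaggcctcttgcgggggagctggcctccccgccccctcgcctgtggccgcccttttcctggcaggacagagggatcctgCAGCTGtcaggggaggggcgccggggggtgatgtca
The E-box is common: 66.2% of all windows held at least 1 copy and 31.8% held as many as Des.

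All 10 genes were detected, meaning that each library gave a TPM of at least 1. TPM, the authors' estimate of a gene's share of all transcripts, is a per-length scale on which levels of different genes can be set side by side. Paired values are given for replicate 1 and then replicate 2. Among 21474 protein-coding genes the share detected was 56.6%, which is the share to set beside every count of detected genes in a list. The members' median was 12.9 TPM in replicate 1 and 12.2 TPM in replicate 2, against 2.82 and 2.87 TPM for all protein-coding genes. Their summed level was 176 and 173 TPM. The highest mean was 12.2-fold above the lowest, and the scarcest measurement, Hgf in replicate 1, still rested on 224 estimated counts.

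**Figure D1:**
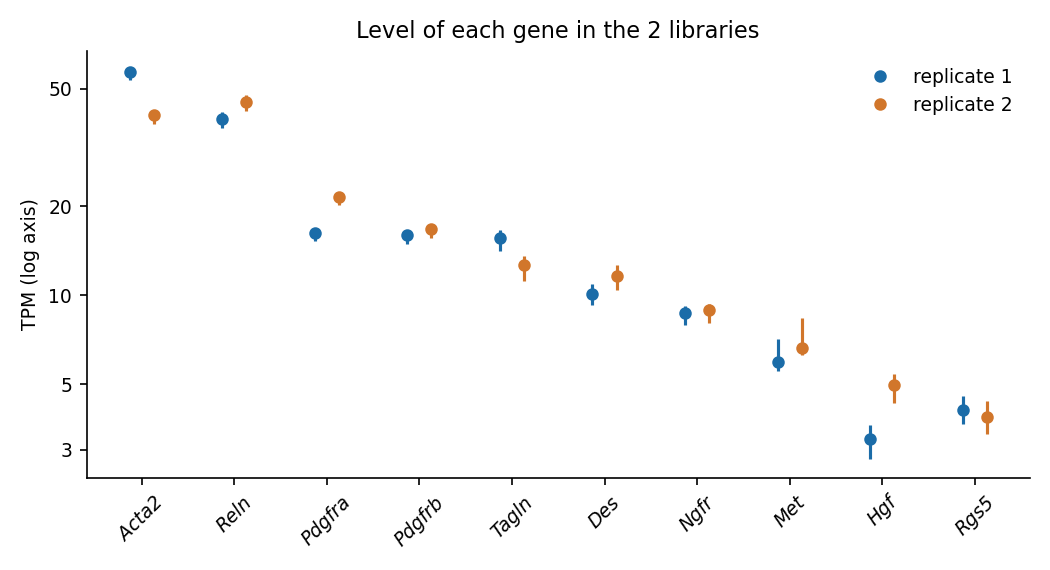
Level of each of the 10 genes in TPM on a log axis, in replicate 1 (blue) and replicate 2 (orange), in the order of the mean. Points are the deposited TPM and bars the deposited credibility interval. Acta2 and Reln stand above the rest, and the intervals of the 2 libraries do not overlap for Acta2, Reln, Pdgfra, Tagln and Hgf.

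Among contractile and filament genes, Acta2 was the most abundant member. Over all 10 it had the highest mean, although Reln was above it in replicate 2 and the 2 genes were not set apart. It encodes the alpha actin of smooth muscle, the usual mark of contractile perivascular cells, and lies at chr19:34241090-34255590 on the minus strand. Its level was 56.9 TPM in replicate 1 and 40.9 TPM in replicate 2 (48.9 ± 11.3 TPM, SD, n = 2), from 2469 and 1549 counts. Replicate 1 was the higher library, and the deposited intervals of the 2, 53.5 to 57.8 TPM and 37.9 to 41.9 TPM, did not overlap. The annotation used by the authors gave Acta2 a single transcript, Acta2-201.

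Acta2 was set against the other actins because their coding sequences are close relatives. The cardiac actin Actc1 was at 73.5 and 33.0 TPM, above Acta2 in replicate 1 and below it in replicate 2, so the order of the pair was not settled. The enteric smooth muscle actin Actg2, at 5.80 and 7.34 TPM, lay under Acta2 by 7.29-fold (log2 ratio 2.87 ± 0.57, SD, n = 2). The actins of all cells stood far higher, Actb at 3936 and 4035 TPM and Actg1 at 1218 and 1374 TPM. Over the aligned coding sequence, Acta2 shared 85.4% of bases with Acta1, 84.2% with Actg2, 82.6% with Actc1, 82.8% with Actb and 81.5% with Actg1. The estimated counts of Acta2 were whole numbers in both libraries, as they are for a gene whose reads the model did not divide with another.

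Tagln encodes transgelin, an actin-binding protein of smooth muscle also called SM22 alpha, and lies at chr9:45929619-45936058 on the minus strand. It measured 15.7 TPM in replicate 1 and 12.7 TPM in replicate 2 (14.2 ± 2.11 TPM, SD, n = 2), from 602 and 425 counts. Like Acta2, it was higher in replicate 1 with deposited intervals that did not overlap. Acta2 exceeded Tagln 3.40-fold in the mean, by log2 ratios of 1.85 and 1.68 in the 2 libraries. The broadly expressed paralog Tagln2 was at 194 and 197 TPM, 13.8-fold above Tagln, and the neuronal paralog Tagln3 was at 4.14 and 3.31 TPM. Exons of Tagln overlap those of Pcsk7 and Gm48529 on the other strand. The strand setting of the counting was not found in the labels or headers, so reads of overlapping stretches cannot be told apart.

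Des encodes desmin, the muscle intermediate filament that also marks stellate cells of rodents, and lies at chr1:75360329-75368579 on the plus strand. Its level was 10.1 and 11.6 TPM (10.9 ± 1.08 TPM, SD, n = 2), from 751 and 722 counts. The 2 intervals overlapped. Exons of Gm15179 overlap Des on the other strand. Transcript Des-201 carried 97.8% and 92.2% of the gene's TPM, and the retained-intron transcript Des-202 carried 2.19% and 7.84%. Vim, the filament gene of mesenchyme in general, was 16.6-fold above Des at 182 and 181 TPM, a log2 ratio of -4.05, or -3.44 when protein-coding transcripts alone were summed. Among the other type III and IV filaments, Nes was at 3.67 and 4.59 TPM and Gfap, which adult stellate cells can express, at 1.86 and 2.27 TPM.

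The wider contractile programme was read from 11 smooth muscle genes, of which 9 were detected, beside 56.6% of all protein-coding genes. The medians of the 11 were 5.80 and 7.34 TPM. The highest was Tpm1, a tropomyosin, at 321 and 305 TPM. Cald1, caldesmon, followed at 98.6 and 92.8 TPM and Myl9, a regulatory myosin light chain, at 87.5 and 79.5 TPM. The 2 that missed detection were named after their values were seen. They were Myh11, the smooth muscle myosin heavy chain, at 0.62 and 0.71 TPM, and Lmod1, a leiomodin, at 0.12 and 0.13 TPM. The CArG-binding factor itself, Srf, was at 3.29 and 3.16 TPM. Its actin-sensing coactivators Mrtfa and Mrtfb were at 15.6 and 15.1 TPM and at 11.3 and 9.73 TPM. Myocd, the coactivator of heart and smooth muscle, was at 1.02 and 0.61 TPM.

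Of the receptors, Pdgfra and Pdgfrb were close to each other. Pdgfra, the PDGF receptor of mesenchyme, lies at chr5:75152292-75198215 on the plus strand. It measured 16.2 TPM in replicate 1 and 21.6 TPM in replicate 2 (18.9 ± 3.78 TPM, SD, n = 2), from 2699 and 3133 counts, all on transcript Pdgfra-201. Exons of Gm42802 and Gm42803 overlap Pdgfra on the other strand and Mir7025 on the same strand. Pdgfrb, the receptor that pericytes need, measured 16.0 TPM and 16.8 TPM (16.4 ± 0.580 TPM, SD, n = 2), from 2188 and 2008 counts. Transcript Pdgfrb-201 carried 100% and 96.9% of it and Pdgfrb-202 the other 0 and 3.14%. Pdgfra was higher in replicate 2 while Pdgfrb differed little, and the ratio of the 2 genes, log2 0.02 and 0.36, did not set them apart.

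All 4 PDGF ligands were detected, each below both receptors. Pdgfc, which acts through PDGFRA, was the highest over all transcripts at 8.99 and 10.2 TPM, 1.94-fold under Pdgfra. That rank did not hold on protein-coding transcripts alone, where its log2 ratio to Pdgfra was -3.02 in place of -0.95 and Pdgfa, at -2.66, was the highest ligand. Pdgfa was at 3.81 and 2.72 TPM, 5.66-fold under Pdgfra. Pdgfb, made by endothelium to recruit pericytes, was at 2.05 and 1.95 TPM, 7.85-fold under Pdgfrb. Pdgfd was at 2.21 and 2.31 TPM, 6.98-fold under Pdgfrb. The ligands of this family were thus separated from the receptors in the same direction in both libraries, in all 8 pairings. These set each of the 4 ligands against both receptors, known partners or not, so the pairings share their values.

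Ngfr encodes p75, the shared low-affinity receptor of the neurotrophins, and marks stellate cells of the embryonic liver as well as neural crest cells. It lies at chr11:95568818-95587735 on the minus strand and measured 8.74 and 8.91 TPM (8.83 ± 0.120 TPM, SD, n = 2), from 755 and 672 counts. Neurotrophin ligands were lower. Ntf3 was at 4.68 and 4.67 TPM, 1.87-fold under Ngfr, Ntf5 at 1.48 and 1.91 TPM and Bdnf at 0.57 and 0.70 TPM. Of 7 TRK receptors and p75 partners 3 were detected, beside 56.6% of all protein-coding genes. The sorting receptor Sort1 led at 10.5 and 9.93 TPM, followed by Sorcs2 at 1.70 and 1.93 TPM and Lingo1 at 1.96 and 1.60 TPM. The TRK receptors Ntrk2 and Ntrk3, named after their values were seen, stayed between 0.41 and 0.97 TPM. Both were below Ntf3 and Ntf5 in each library. Neural crest, glial and neuronal markers gave 4 detected of 8, beside the same 56.6%. These markers had a summed level of 15.3 and 19.2 TPM and none was at 0. Among the highest were Tubb3, at 4.60 and 5.58 TPM, and Erbb3, at 2.32 and 2.98 TPM. Their part in the level of Ngfr was not tested.

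Rgs5 encodes a GTPase activator that marks pericytes and lies at chr1:169655501-169695813 on the plus strand. At 4.10 and 3.88 TPM (3.99 ± 0.156 TPM, SD, n = 2), from 415 and 328 counts, it had the lowest mean of the members. Hgf was below it in replicate 1, and the 2 genes were not set apart. Transcript Rgs5-201 carried 97.7% and 92.8% of it and Rgs5-202 2.27% and 7.23%. Of 9 other small RGS genes 3 were detected, beside 56.6% of all protein-coding genes. All 3 were above Rgs5 in both libraries. They were Rgs18, a gene of blood cells and platelets, at 27.5 and 26.8 TPM, Rgs2 at 12.6 and 9.93 TPM, and Rgs3 at 9.26 and 7.80 TPM. Of 10 further pericyte markers 7 were detected, beside the same 56.6%, and the 10 had a summed level of 62.9 and 67.9 TPM. Cd248 (endosialin) led them at 22.2 and 24.0 TPM, before Anpep at 13.4 and 15.7 TPM and Mcam at 9.62 and 9.69 TPM. Those that missed, named after their values were seen, were Cspg4 (NG2) at 0.46 and 0.68 TPM, Tbx18 at 1.24 and 0.71 TPM, and Higd1b, with 1 count in replicate 1 and 0 in replicate 2, which allows a level up to 0.273 TPM.

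Hgf, the scatter factor made by mesenchyme, lies at chr5:16553495-16620152 on the plus strand. It measured 3.27 TPM in replicate 1 and 4.96 TPM in replicate 2 (4.12 ± 1.20 TPM, SD, n = 2), from 224 and 297 counts. The annotation used by the authors gave Hgf a single transcript, Hgf-201. Replicate 2 was higher and the deposited intervals, 2.80 to 3.63 TPM and 4.31 to 5.40 TPM, did not overlap. Exons of Gm43489 overlap Hgf on the same strand.

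Met, at chr6:17463800-17573980 on the plus strand, encodes the receptor tyrosine kinase that binds HGF. It measured 5.94 TPM in replicate 1 and 6.63 TPM in replicate 2 (6.29 ± 0.488 TPM, SD, n = 2), from 938 and 945 counts. Transcript Met-203 carried 89.6% and 93.7% of it and the short Met-206 carried 6.58% and 5.73%. Receptor exceeded ligand in both libraries: Hgf lay under Met by log2 0.84 in replicate 1 and 0.41 in replicate 2, a mean of 1.54-fold.

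HGF is secreted as an inactive chain that proteases cut, and their inhibitors restrain them. Of 8 such genes 7 were detected, with medians of 23.7 and 24.8 TPM. Plg, plasminogen, was the highest at 99.3 and 126 TPM. F12, a clotting protease, was at 47.3 and 51.0 TPM, and Spint2, a membrane inhibitor, at 38.9 and 39.7 TPM. Downstream of MET, all 8 adaptors and effectors were detected, led by Shc1 at 57.6 and 58.6, Stat3 at 43.9 and 42.3 and Grb2 at 38.9 and 36.7 TPM. The related pair, the HGF-like ligand Mst1 and its receptor Mst1r, was at 7.45 and 10.1 TPM and at 1.01 and 1.19 TPM, so there the ligand was above the receptor. Hepatoblast markers were all present, with Afp at 4698 and 5457, Trf at 1903 and 2228 and Apoa1 at 976 and 1012 TPM.

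**Figure D2:**
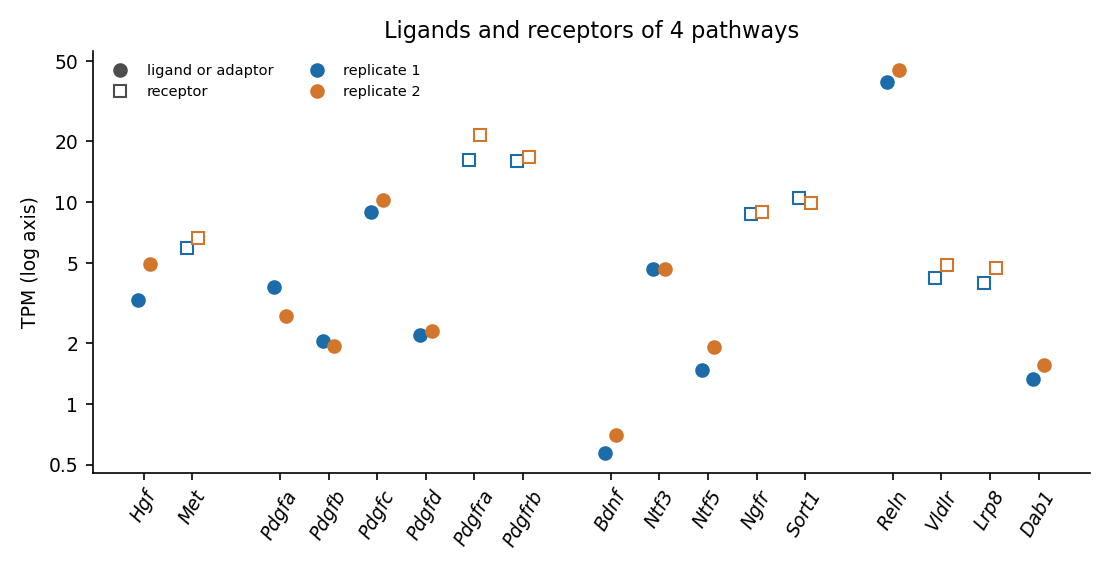
Level in TPM on a log axis of ligands or adaptors (filled circles) and receptors (open squares) of the HGF, PDGF, neurotrophin and reelin pathways, in replicate 1 (blue) and replicate 2 (orange). The receptors shown lie above the ligands shown for HGF, PDGF and neurotrophins, with Met at 5.94 and 6.63 TPM. Reln, at 39.5 and 45.2 TPM, lies above its receptors. For neurotrophins the receptors shown are Ngfr and Sort1, and the TRK receptors are left out.

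Reln encodes reelin, a large secreted glycoprotein known from cortical layering that stellate cells and lymphatic endothelium also make. It lies at chr5:21884454-22344702 on the minus strand. Its level was 39.5 TPM in replicate 1 and 45.2 TPM in replicate 2 (42.4 ± 4.06 TPM, SD, n = 2), from 6030 and 5466 counts, the most counts of any member. Of 7 reelin receptor and signalling genes all were detected. The receptors Vldlr and Lrp8 were at 4.22 and 4.87 TPM and at 4.0 and 4.72 TPM, 9.14-fold and 9.53-fold under Reln. The kinase Fyn was at 14.7 and 16.4 TPM and the adaptors Crk and Crkl at 54.1 and 56.5 TPM and at 27.7 and 30.9 TPM.

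The level of Reln depended on which of its transcripts was meant. The files list 12 transcripts, of which 2 are protein-coding, and the reads were divided among them by the authors' model. Reln-207, the longest, has 11699 bases in 65 exons and encodes reelin. It carried 39.8% and 35.0% of the gene's TPM but 78.1% and 75.7% of its counts. Reln-205, a non-coding transcript of 891 bases in 3 exons at chr5:21884895-21896068, carried 35.2% and 43.0% of the TPM but 4.72% and 6.35% of the counts, which were 284 and 347. Counts per kilobase of the deposited effective length, the bases at which a read can start (11600 for Reln-207 and 792 for Reln-205), were 406 and 357 for Reln-207 and 359 and 438 for Reln-205. The leading transcript by TPM was therefore Reln-207 in replicate 1 and Reln-205 in replicate 2.

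On the 2 coding transcripts alone Reln measured 17.7 and 18.1 TPM, which is 44.9% and 40.0% of its TPM and 87.4% and 85.8% of its counts. On that scale it fell from the second to the third place among the members, close to Pdgfra and Pdgfrb. The ratio to Lrp8, also on coding transcripts, became 2.25 on the log2 scale in place of 3.25, and that to Vldlr 2.73 in place of 3.19.

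**Figure D3:**
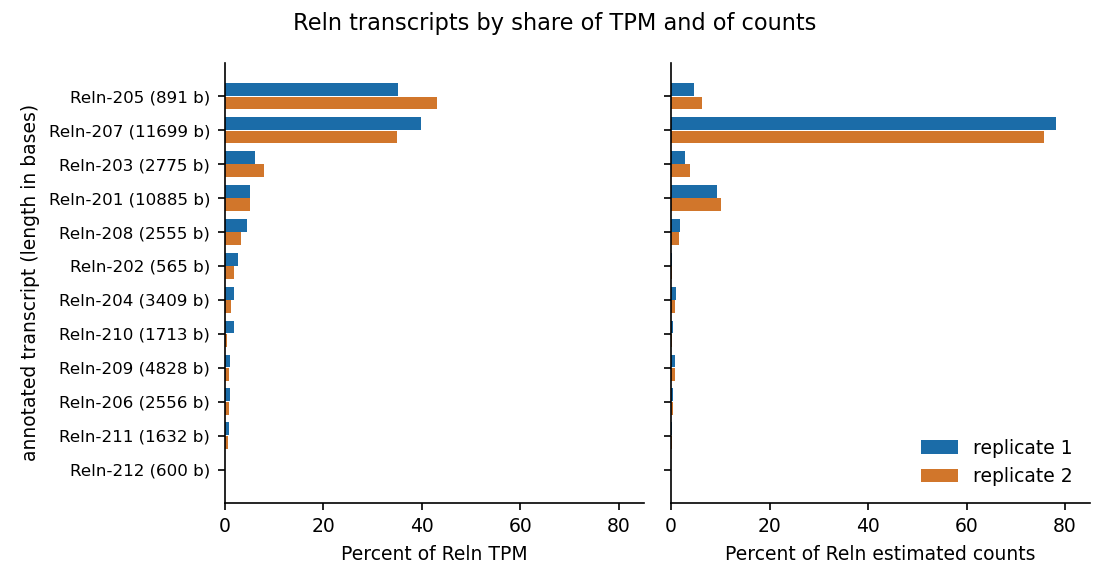
Share of each annotated Reln transcript in the gene's TPM (left) and in its estimated counts (right), in percent, for replicate 1 (blue) and replicate 2 (orange). The 891-base transcript Reln-205 carries 35.2% and 43.0% of the TPM and 4.72% and 6.35% of the counts, while Reln-207 dominates the counts.

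Most of Reln-205 cannot be told from Reln-207 by sequence, since 761 of its 891 bases are exonic in both. The 130 bases that are its own lie in 1 exon, chr5:21891562-21891697 on the minus strand in GRCm38, and are shown because they are what separates the 2 transcripts. They run into an exon of only 6 bases, in capitals, which Reln-207 contains as an exon of its own and Reln-201 lacks.
Reln-205 middle exon: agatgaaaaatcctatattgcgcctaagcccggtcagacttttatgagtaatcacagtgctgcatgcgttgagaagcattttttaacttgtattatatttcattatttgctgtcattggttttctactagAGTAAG
The lower-case bases are intron in Reln-207. The coding transcript Reln-201, without the 6-base exon, carried 5.09% and 5.01% of the TPM and 9.28% and 10.1% of the counts. Read coverage within exons was not analysed here, so how many of the reads given to Reln-205 fell on its 130 own bases is not known from these values. Gm10475 overlaps Reln exons on the other strand. Reln was also the only member whose estimated counts were not whole.

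Setting the genes in the order of their mean TPM gave Acta2, Reln, Pdgfra, Pdgfrb, Tagln, Des, Ngfr, Met, Hgf and Rgs5. Neighbours were called apart when the order was the same in each library, no deposited intervals overlapped, and the average log2 ratio was larger than the gap between libraries. By that rule 3 of 9 neighbouring pairs were apart: Reln above Pdgfra (2.26-fold), Des above Ngfr (1.23-fold) and Met above Hgf (1.54-fold). Acta2 and Reln changed places between the libraries, as did Hgf and Rgs5. The separation of Reln from Pdgfra was lost on protein-coding transcripts alone, where Reln (17.7 and 18.1 TPM) was above Pdgfra (16.2 and 21.6 TPM) in replicate 1 and below it in replicate 2.

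The same rule was applied to 16 pairs of signalling genes and set 15 apart. These 15 each set a ligand gene beside a receptor gene of its family, and the ligand was lower in 13 of them and higher in 2, both with Reln. The PDGF pairs crossed every ligand with both receptors, known partners or not, so the pairs reuse values and are not independent. The other pair, the receptors Pdgfra and Pdgfrb, was not set apart.

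Other markers of stellate cells were present around these members. Of 9 listed, 8 were detected, beside 56.6% of all protein-coding genes, with medians of 11.6 and 11.1 TPM, near those of the members. Among the highest, Dcn, the matrix proteoglycan decorin, was at 27.7 and 26.8 TPM and Ecm1 at 24.1 and 24.3 TPM. The marker that missed, named after its values were seen, was Lrat, the enzyme that makes the stored retinyl esters, at 0.16 and 0.17 TPM from 22 and 20 counts. Mesothelial markers gave 4 detected of 5, with Podxl at 22.2 and 22.4, Upk3b at 18.9 and 18.5 and Wt1 at 16.3 and 15.7 TPM. Endothelial markers gave 6 of 6, led by Egfl7 at 139 and 130, Kdr at 21.3 and 25.1 and Pecam1 at 13.7 and 14.4 TPM. Of 4 markers of lymphatic endothelium, which also makes reelin, 3 were detected, beside 56.6% of all protein-coding genes. Lyve1, which embryonic liver sinusoids also express, was at 19.7 and 20.7, Flt4 at 7.03 and 7.97 and Pdpn at 4.55 and 4.44 TPM, while Ccl21a was at 0.90 and 0.52 TPM. Their part in the level of Reln was not tested. All 4 red cell genes were detected, with Hbb-y at 12181 and 11493, Klf1 at 349 and 405, Alas2 at 130 and 162 and Gata1 at 120 and 130 TPM.

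The pools were then compared on estimated counts scaled by TMM, a normalization that sets the typical gene equal. Ratios are replicate 1 over replicate 2 and their intervals, 95% exact binomial, cover counting error only. No member was 1.5-fold or more higher in replicate 1, a size reached by 7.05% of the 16607 genes compared. No member was 1.5-fold or more higher in replicate 2, a size reached by 3.96%. With an average of 10 or more counts required, the genes compared include all 10 members. The members' median log2 ratio was 0.02, with 6 higher in replicate 1 and 4 in replicate 2, against 0.00 over all genes compared. Intervals excluded 0 for 5 of 10 members and for 39.0% of all genes.

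Acta2 was the member most raised in replicate 1, at a log2 ratio of 0.56 (interval 0.47 to 0.65, 1.47-fold). Tagln followed at 0.39 (0.21 to 0.57) and Rgs5 at 0.23 (0.01 to 0.44). On the other side, Hgf was at -0.52 (-0.78 to -0.26, 1.43-fold) and Pdgfra at -0.33 (-0.40 to -0.25). The intervals of Des, Met, Ngfr, Reln and Pdgfrb included 0, with ratios from -0.12 to 0.06. On deposited TPM, where the larger spike-in share of replicate 1 (14.6% against 11.1%) lowers its values, Hgf alone was 1.5-fold or more apart. When the libraries were scaled to the spike-in totals instead, the median gene moved to -0.49, Tagln to -0.10 and Rgs5 to -0.26, both still above that median.

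Heart muscle markers differed between the pools in the same direction as Acta2 and Tagln, genes that the early heart also expresses. Of 11 such markers 8 were detected, beside 56.6% of all protein-coding genes, and none was at 0. They summed to 309 and 134 TPM. The median log2 ratio was 1.25, and each of the 11 was at least 1.5-fold higher in replicate 1. Myl7, an atrial myosin light chain, was at 119 and 58.9 TPM, Actc1 at 73.5 and 33.0 TPM and Tnnt2, cardiac troponin T, at 28.0 and 10.3 TPM. Des, which heart muscle makes too, did not share this direction, at -0.06 (-0.20 to 0.09). The 11 smooth muscle genes had a median of 0.09 and 1 of them was 1.5-fold or more apart, Cnn1, calponin, at 0.93 (0.56 to 1.33), named after its value was seen. Of the coactivators, Myocd was at 0.97 (0.42 to 1.55), from 87 and 41 counts. The other coactivators were lower, Mrtfa at 0.09 (-0.02 to 0.21) and Mrtfb at 0.24 (0.12 to 0.37). Of 6 skeletal muscle genes 3 were detected, beside the same 56.6%, and the 6 summed to 7.66 and 8.10 TPM. The highest, Myog, Myod1 and Myf5, were at 4.0 and 3.66, 1.70 and 1.69, and 1.25 and 1.79 TPM. The part of heart tissue in the levels of Acta2, Tagln and Des was not tested.

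**Figure D4:**
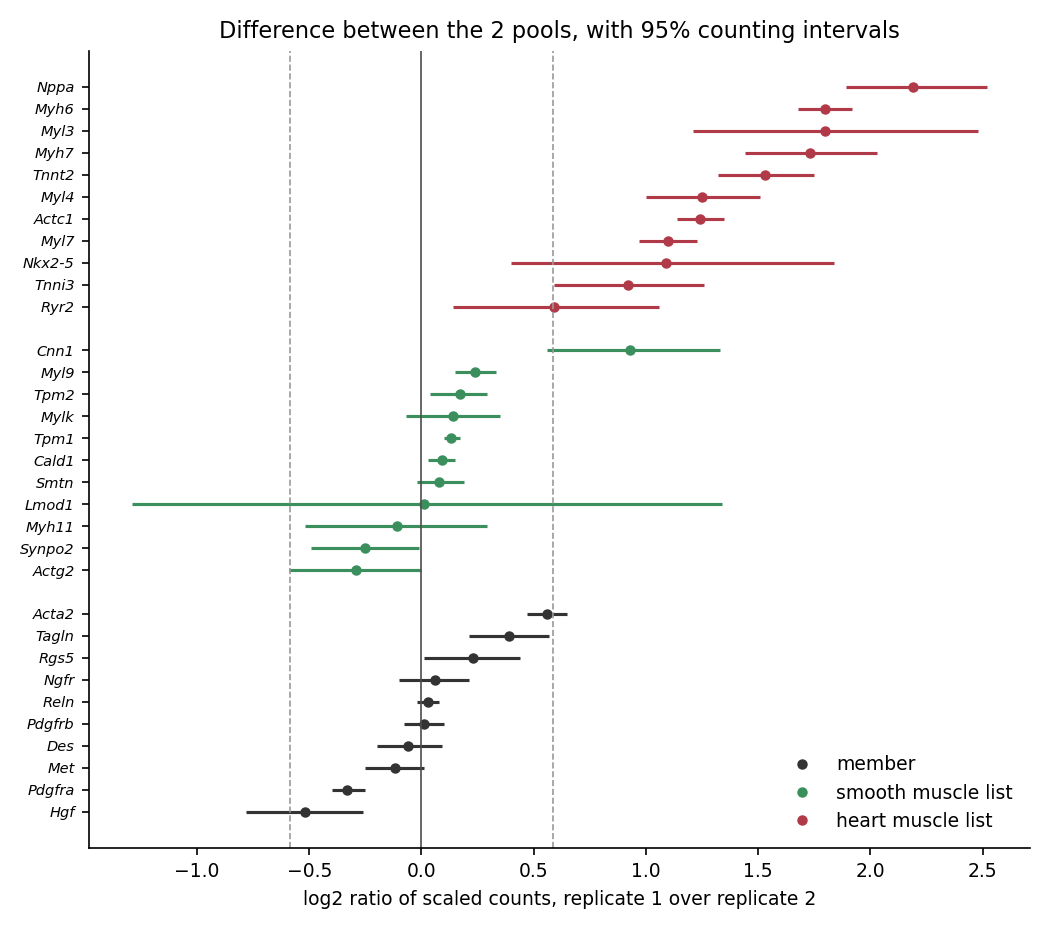
Log2 ratio of TMM-scaled counts, replicate 1 over replicate 2, for the 10 genes (black), 11 smooth muscle genes (green) and 11 heart muscle genes (red). Points are ratios, bars 95% exact binomial intervals of the counts, and dashed lines mark 1.5-fold. All red points reach or pass the right-hand dashed line, the black points stay between the lines, and Acta2 (0.56) and Tagln (0.39) are the rightmost of them.

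Stellate markers had a median log2 ratio of 0.06 and pericyte markers 0.03, and endothelial markers were at -0.07. Hepatoblast markers, the cells that carry Met, were at -0.02. The ratios of Hgf (-0.52) and Pdgfra (-0.33) lay below each of these medians, and those of Pdgfrb, Reln and Ngfr were 0.01, 0.03 and 0.06.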

How the data were processed

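Total RNA-seq of 2 libraries of 1 group was used. Per the file headers the authors deposited estimated counts, which a model shares out among features, TPM over all features with spike-ins included, and the percent of each gene's TPM carried by each transcript. Deposited text notes name GENCODE M4 on mm10. Column names are those of RSEM; for the aligner, quantifier and versions, nothing is given in the sources used here. Symbols, classes and coordinates came from GENCODE M21 on GRCm38, matching 42462 of 43346 genes. The deposited credibility intervals have no stated level.

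Libraries held 34344230 and 31477397 estimated counts, of which 31721267 and 29750192 lay on mouse genes, and intervals and limits cover counting error only. Levels are means ± SD. Pairs used log2 TPM with a pseudocount of 0.1. Library ratios used TMM (edgeR 4.0.16, R 4.3.3) on rounded estimated counts of mouse genes with a pseudocount of 0.5. The ratio step was tried on simulated counts drawn with counting error alone. Those counts hold no variation between pools, so they cannot show how the intervals behave under it. A count of 0 was given a limit of 3 counts. Aligned coding sequences came from GENCODE M21 transcripts. Alternatives were other scalings (DESeq2 1.42.0 size factors, total counts, spike-ins, TPM), thresholds, pseudocounts, coding transcripts alone (with no interval condition), posterior means, raw counts and each library alone. Other calculations used scipy 1.17.1, pandas 2.3.3 and Python 3.11.15.

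Members and the 23 lists beside them were chosen with earlier results of these data known. Named were all members, the 3 highest genes of each list by mean TPM, genes of the pairs, all genes of lists of at most 4, and each member's 2 leading transcripts. Some genes chosen this way are not reported here. With 2 libraries of 1 group, no gene could be named for a similar pattern across samples. The labels name separate pools as biological replicates. Protein sequences were not used here.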

Additional observations from a re-analysis of the deposited data

How the results depend on the processing

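No paired analysis was possible because both libraries belong to 1 group. Rescaling TPM to mouse genes alone raised the median member level from 12.5 to 14.4 TPM. Neighbours called apart were 3 of 9. They were 6 on coding transcripts alone, where the sums have no deposited interval and that condition was dropped. Dropping it over all transcripts, a setting chosen after seeing the data, gave 4. On coding transcripts Reln and Pdgfra, apart in the main order, were not. Counts not divided by length, with Poisson intervals, gave 6, and each library alone gave 6 to 7, with no gap between libraries to exceed. Members 1.5-fold apart between the pools rose from 0 to 1 on deposited TPM (Hgf) and to 3 on spike-in totals (Hgf, Pdgfra and Met). Lists whose median was 1.5-fold apart rose from 1 to 5 on spike-in totals. On that scaling Tagln (-0.10) and Rgs5 (-0.26) reversed sign, with the median gene at -0.49; what set the spike-in share was not tested. The other 49 values of the main comparisons were classed as the same, although some counts among them changed. With a TPM threshold of 5, detected members fell from 10 to 8. Lists with a median at or above the threshold fell from 19 to 13, and with a threshold of 0.5 they rose to 23. Of 226 values of single genes and pairs, 163 were classed as the same, while 61 moved by more than the spread between libraries.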
